A study of Rattus norvegicus with 20 samples.

Results

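The genes described here code for the synaptic vesicle and the machinery that releases its content: 43 listed genes, of which 42 were found by symbol among the 32883 genes of the count table. Sv2b was not found by symbol and was not analysed here. All 42 passed the low-count filter that left 15272 genes for testing. Their levels were read in the hippocampus of Gunn rat pups killed on postnatal day 6. Gunn rats carry a mutation in the enzyme that conjugates bilirubin, so that homozygous pups (jj) are jaundiced while heterozygous pups (Nj, written Jj in some labels) are not. The 4 groups of 5 pups were light-treated jj, untreated jj, light-treated Nj and untreated Nj. Treated pups of both genotypes lay under intermittent LED phototherapy, the light treatment of newborn jaundice, from postnatal day 4 through 6, for 12 h in all, in alternating periods of 3 h. Each polyA library came from one hippocampal lobe, and the design text speaks of 6 untreated pups where 5 libraries per group were analysed here.

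At a synapse, transmitter is loaded into vesicles, and the vesicles dock and are primed at the active zone. Calcium entry is sensed by synaptotagmins, which lets SNARE proteins zip the vesicle to the plasma membrane. Complexins clamp and assist that step, NSF and the SNAP adaptors take the spent SNARE complexes apart, and endocytosis recovers the membrane. In the rodent hippocampus many of these genes increase in the first postnatal weeks, when synapses form in large numbers.

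Library totals ran between 16882652 and 27112749 counts. Levels are given as CPM, the count set against the scaled library size, and differences as log2 changes with their standard error (SE). A gene was called where edgeR's quasi-likelihood test gave an adjusted p under 0.05 over all genes tested. All 8 hippocampal marker genes were detected in every group. Of 12 choroid plexus markers, 11 were tested. Their summed level ran between 59.7 and 8713 CPM in light-treated libraries, with a median of 2393 CPM. In untreated libraries it ran between 47.1 and 10850.0 CPM, with a median of 167.5 CPM. Title prefixes follow the groups: all treated pups carry J18, untreated jj pups J17, and untreated Nj pups J13, J14 or J15. What the prefix stands for is not given, and light and prefix cannot be told apart.

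The first question was whether phototherapy changed the release machinery. Averaged over both genotypes, 15 of the 42 genes were called: 13 rose and 2 fell in light-treated pups. Among all genes tested the called share was 10.1%, with 4.35% higher and 5.74% lower. The listed genes were chosen with earlier results of these data known, so these shares are set side by side as description only. The genes that rose were Vamp1, Napb, Snap25, Nsf, Cplx1, Vamp2, Slc17a7, Syngr3, Syp, Syt1, Sh3gl2, Sncb and Rab3a, and those that fell were Syn3 and Pclo. The changes were small, between -0.17 and 0.35 on the log2 scale among the called genes. The median change of the 42 was 0.08, with 30 of 42 positive, while the median of all genes tested was 0.0009, with 50.35% positive. At an unadjusted p under 0.05 the count was 26 of 42, 21 higher and 5 lower, against 24.6% of all genes, 11.3% higher and 13.3% lower. DESeq2 called 19, 17 higher and 2 lower, where it called 13.3% of all genes, 6.1% higher and 7.21% lower. None of the 42 had light-treated and untreated ranges apart over all 20 libraries, and 0.478% of all genes did. In whole tissue, fewer cells of a type and less RNA per cell cannot be told apart.

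**Figure D1:**
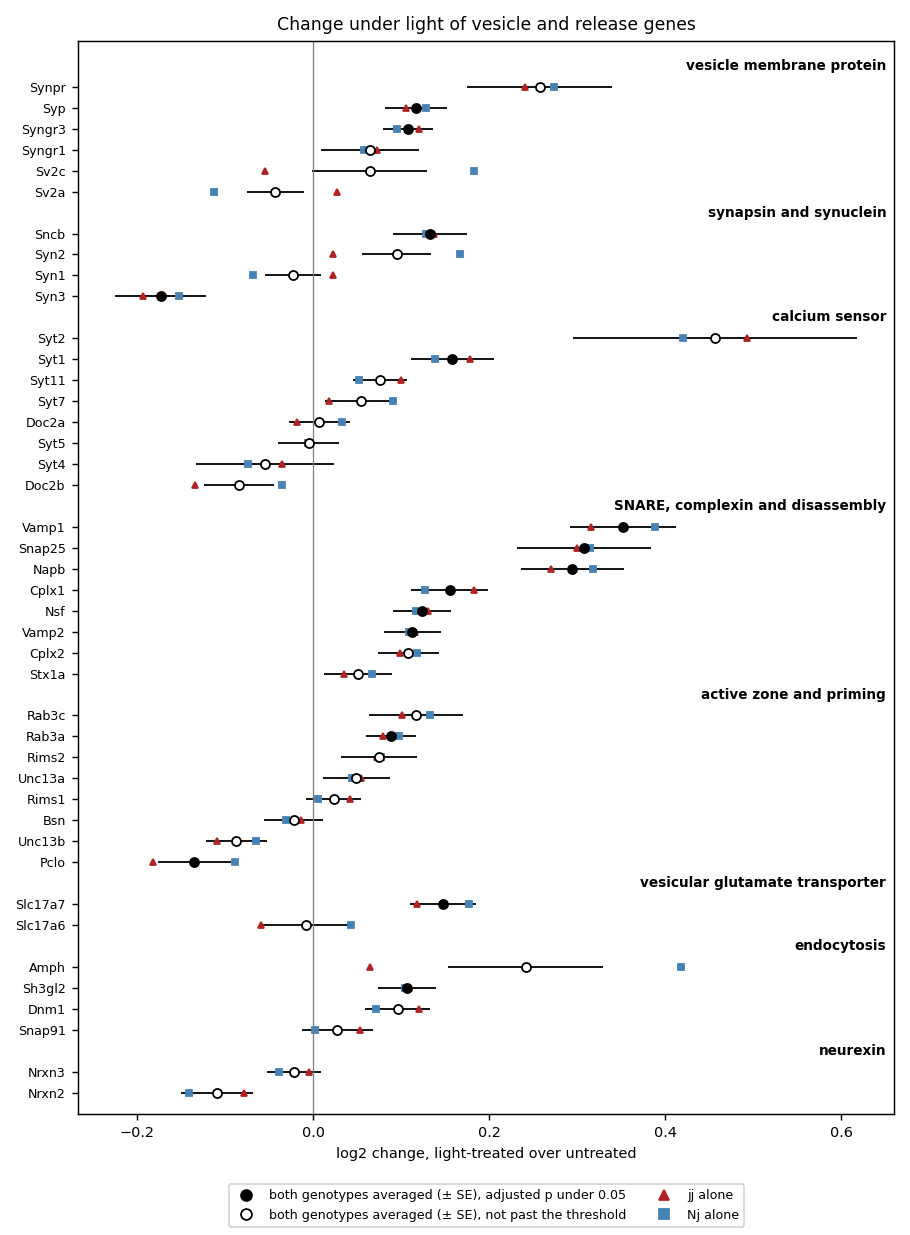
Log2 change, light-treated over untreated, of the 42 genes grouped by role; circles average both genotypes with their SE (filled where the adjusted p was under 0.05), red triangles are jj alone and blue squares Nj alone. All 8 SNARE, complexin and disassembly genes lie above 0, with Vamp1 at 0.35, while Syn3 at -0.17 and Pclo at -0.14 are the 2 filled circles below 0.

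The SNARE, complexin and disassembly genes held the largest number of calls. Of 8, 6 rose and none fell, where 10.1% of all genes were called, 4.35% higher and 5.74% lower. All 8 changes were positive, against 50.35% of all genes, and the median of the 8 was 0.14 on the log2 scale. Vamp1 and Vamp2 code for the vesicle SNARE synaptobrevin. Vamp1 had 31.4, 31.2, 30.7, 27.8 and 32.1 CPM in light-treated jj pups, against 26.2, 27.8, 24.4, 22.4 and 22.4 CPM in untreated jj pups. Among Nj pups, Vamp1 had 25.8, 27.6, 26.0, 29.7 and 30.7 CPM in the light-treated, against 22.5, 25.7, 17.7, 19.2 and 21.7 CPM in the untreated. The Nj groups were apart by a narrow margin, and the jj groups met at 27.8 CPM. Vamp1 rose by 0.35 (SE 0.06, adjusted p = 0.0011), the largest change among the called genes. Vamp2 had 1092, 995, 1165, 1045 and 1090.4 CPM in light-treated jj pups, against 1042, 964, 988, 943 and 1035 CPM in untreated jj pups. Among Nj pups, Vamp2 had 1110.5, 1080.0, 1073, 1138 and 1098 CPM in the light-treated, against 1073, 1078, 998, 956 and 993 CPM in the untreated. The groups overlapped in both genotypes, by the untreated Nj libraries at 1073 and 1078 CPM and by the untreated jj libraries at 1042 and 1035 CPM. Vamp2 rose by 0.11 (SE 0.03, adjusted p = 0.0312).

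Snap25 codes for the plasma-membrane SNARE that pairs with syntaxin. Snap25 had 735, 644, 766, 668 and 684 CPM in light-treated jj pups, against 629.9, 614, 377, 584 and 636 CPM in untreated jj pups. Among Nj pups, Snap25 had 789, 767, 735, 756 and 781 CPM in the light-treated, against 705, 672, 596, 530.5 and 573 CPM in the untreated. The light-treated range lay above the untreated one within each genotype, and untreated jj library 3, at 377 CPM, stood far below the rest of its group. The averaged rise of Snap25 was 0.31 (SE 0.08, adjusted p = 0.0144). Stx1a, the syntaxin of this complex, ran between 184 and 233 CPM in light-treated libraries and between 186 and 209 CPM in untreated ones. Its change of 0.05 (SE 0.04, adjusted p = 0.448) did not pass the threshold.

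Napb codes for beta-SNAP, the brain adaptor that brings NSF to the SNARE complex, and Nsf for the ATPase that separates it. Napb had 147, 136, 152, 130.4 and 149 CPM in light-treated jj pups, against 118, 127, 88.9, 120.3 and 138 CPM in untreated jj pups. Among Nj pups, Napb had 151, 153, 148, 150.1 and 156 CPM in the light-treated, against 132, 132, 125, 106 and 115 CPM in the untreated. In Nj pups the groups were well apart, and in jj pups the untreated library at 138 CPM reached into the treated range. Napb rose by 0.29 (SE 0.06, adjusted p = 0.00332). Nsf had 486, 438, 453, 442 and 464 CPM in light-treated jj pups, against 428, 444, 383, 418 and 413 CPM in untreated jj pups. Among Nj pups, Nsf had 465, 478, 479, 485 and 479.8 CPM in the light-treated, against 471, 472, 414, 405 and 439.8 CPM in the untreated. The treated and untreated ranges overlapped in each genotype, where 2 untreated Nj libraries reached 471 and 472 CPM. The rise of Nsf was 0.12 (SE 0.03, adjusted p = 0.0192).

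The complexins Cplx1 and Cplx2 bind the assembled SNARE complex. Cplx1 had 328, 283, 309, 292 and 299 CPM in light-treated jj pups, against 276, 251.996, 269, 258 and 276 CPM in untreated jj pups. Among Nj pups, Cplx1 had 312, 275, 309.8, 265 and 299 CPM in the light-treated, against 284, 297, 232, 242 and 282 CPM in the untreated. All treated jj libraries lay above all untreated jj libraries, while the Nj groups overlapped. Cplx1 rose by 0.15 (SE 0.04, adjusted p = 0.0278). Cplx2 had 663, 662, 667, 615 and 636 CPM in light-treated jj pups, against 591, 579.6, 612, 608 and 638 CPM in untreated jj pups. Among Nj pups, Cplx2 had 659, 649.9, 685, 568 and 643 CPM in the light-treated, against 581, 638, 550.1, 569 and 617 CPM in the untreated. Both genotypes showed overlapping ranges, with treated Nj library 4 among the lowest of its genotype. The change of Cplx2, 0.11 (SE 0.03, adjusted p = 0.0506), narrowly missed the threshold.

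**Figure D2:**
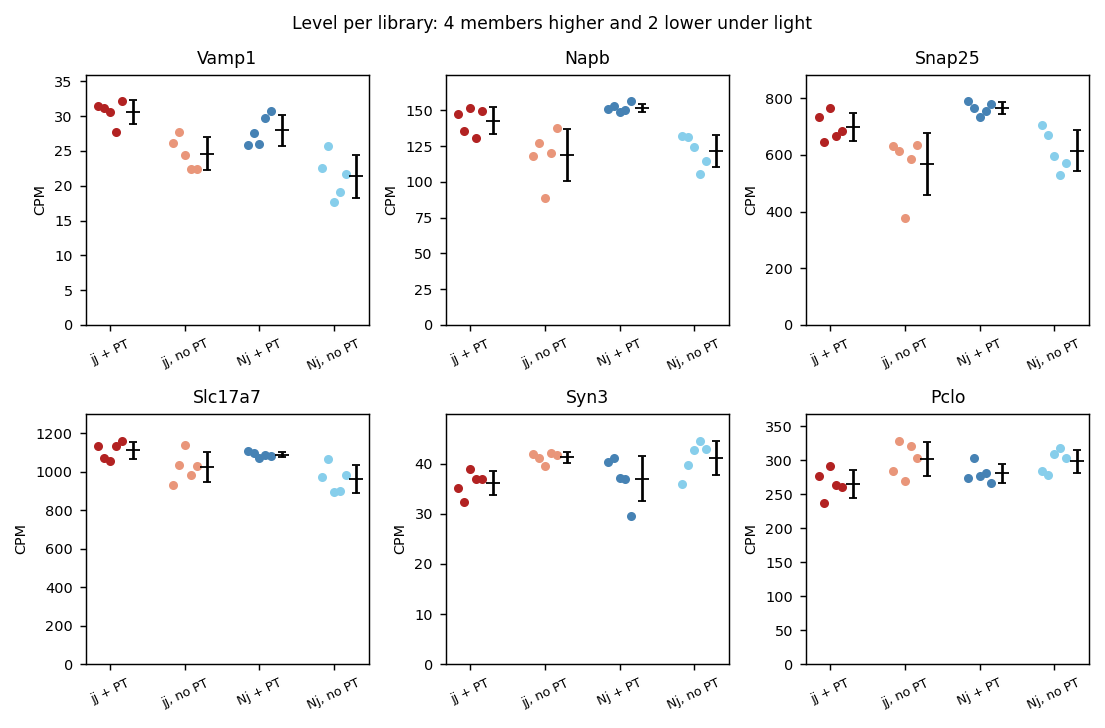
CPM of 4 genes that rose (Vamp1, Napb, Snap25, Slc17a7) and the 2 that fell (Syn3, Pclo) under light, 1 point per library, with mean and SD of 5 libraries beside each group. For Snap25 the treated points lie above the untreated ones within each genotype, and 1 untreated jj library lies at 377 CPM.

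Vesicle filling was represented by the glutamate transporters, of which 1 of 2 was called, where 10.1% of all genes were. Slc17a7 codes for VGLUT1, the main vesicular glutamate transporter of hippocampal pyramidal cells. Slc17a7 had 1134, 1071, 1056, 1132 and 1160.5 CPM in light-treated jj pups, against 929.6, 1035, 1139.9, 982 and 1029.8 CPM in untreated jj pups. Among Nj pups, Slc17a7 had 1105, 1097, 1072, 1086 and 1079 CPM in the light-treated, against 971, 1067, 893, 898 and 982 CPM in the untreated. The Nj groups did not overlap, while untreated jj library 3, at 1139.9 CPM, was higher than 4 of the 5 treated jj libraries. Slc17a7 rose by 0.15 (SE 0.04, adjusted p = 0.014). Slc17a6 codes for VGLUT2, which prevails in early life and in subcortical inputs. Slc17a6 had 112, 95.0, 117, 105 and 101 CPM in light-treated jj pups, against 115, 119.8, 87.3, 107 and 124 CPM in untreated jj pups. Among Nj pups, Slc17a6 had 121, 126, 117, 115 and 121 CPM in the light-treated, against 124, 117, 113, 111 and 118 CPM in the untreated. The groups were interleaved, and the change of -0.01 (SE 0.05, adjusted p = 0.941) did not pass. Among 7 tested thalamic markers, 0 were higher and 1 was lower, where 4.35% of all genes were higher and 5.74% lower. The summed level of the thalamic markers was 90.9 to 104.0 CPM in light-treated libraries and 87.9 to 107.5 CPM in untreated ones.

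Of 6 vesicle membrane genes, 2 rose and none fell, where 4.35% of all genes were higher and 5.74% lower. The median change of the 6 was 0.09. Syp codes for synaptophysin, an abundant tetraspan protein of the vesicle. Syp had 701, 605, 629, 632 and 651 CPM in light-treated jj pups, against 570.1, 615, 630.0, 559 and 618 CPM in untreated jj pups. Among Nj pups, Syp had 658, 638, 666, 664 and 667 CPM in the light-treated, against 609, 659, 551, 569.9 and 622 CPM in the untreated. The treated jj libraries at 605 and 629 CPM lay within the untreated jj range, and an untreated Nj library at 659 CPM within the treated Nj range. Syp rose by 0.12 (SE 0.04, adjusted p = 0.0358). Syngr3 codes for synaptogyrin 3, of the same protein family. Syngr3 had 140.4, 141, 145, 148 and 145 CPM in light-treated jj pups, against 130.1, 141, 127, 127 and 137 CPM in untreated jj pups. Among Nj pups, Syngr3 had 156, 146, 151, 149 and 146 CPM in the light-treated, against 141, 149, 129, 142 and 139.9 CPM in the untreated. The ranges overlapped in both genotypes, through untreated libraries at 141 and 149 CPM. Syngr3 rose by 0.11 (SE 0.03, adjusted p = 0.0191).

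The other vesicle membrane genes were not called. Synpr, which codes for synaptoporin, found on mossy fibre terminals, ran between 63.1 and 88.5 CPM in light-treated libraries and between 39.1 and 73.9 CPM in untreated ones. Its change was 0.26 (SE 0.08, adjusted p = 0.0528). Sv2a codes for the widespread vesicle glycoprotein that binds levetiracetam. Sv2a had 407, 343, 371, 404 and 395 CPM in light-treated jj pups, against 384, 384, 373, 367 and 378 CPM in untreated jj pups. Among Nj pups, Sv2a had 393, 365, 379, 408 and 368 CPM in the light-treated, against 407, 425, 388, 415 and 434 CPM in the untreated. The treated and untreated jj ranges overlapped, and so did the Nj ranges. Averaged over genotypes the change of Sv2a was -0.04 (SE 0.03, adjusted p = 0.439). Sv2c, its relative, ran between 12.4 and 16.5 CPM under light and between 10.0 and 15.7 CPM without it, and Syngr1 between 68.9 and 84.0 CPM under light and between 63.0 and 88.5 CPM without it.

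The synapsins tether vesicles to one another in the reserve pool, and Sncb codes for beta-synuclein, another presynaptic protein. Among these 4 genes, Sncb rose and Syn3 fell, where 4.35% of all genes were higher and 5.74% lower. Syn3, the synapsin linked to early neuronal development, was lower under light. Syn3 had 35.3, 32.4, 39.0, 37.1 and 36.9 CPM in light-treated jj pups, against 42.0, 41.1, 39.6, 42.1 and 41.7 CPM in untreated jj pups. Among Nj pups, Syn3 had 40.4, 41.1, 37.1, 37.0 and 29.6 CPM in the light-treated, against 36.0, 39.7, 42.8, 44.6 and 42.9 CPM in the untreated. In jj pups every treated library lay below every untreated one, and in Nj pups the ranges overlapped widely. Syn3 fell by 0.17 on the log2 scale (SE 0.05, adjusted p = 0.035). Sncb had 284, 259.7, 282, 301 and 293 CPM in light-treated jj pups, against 251, 271, 275, 242 and 252.4 CPM in untreated jj pups. Among Nj pups, Sncb had 295, 277, 257, 311 and 274 CPM in the light-treated, against 251.7, 290.3, 226, 261 and 264 CPM in the untreated. Treated and untreated values of Sncb overlapped in both genotypes. Sncb rose by 0.13 (SE 0.04, adjusted p = 0.0481), close to the threshold. Syn1 had a log2 change of -0.02 (SE 0.03, adjusted p = 0.701) and Syn2 one of 0.09 (SE 0.04, adjusted p = 0.131), neither past it.

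Of 8 calcium-sensor genes, 1 rose and none fell, where 10.1% of all genes were called, 4.35% higher and 5.74% lower. The median change of the 8 was 0.03. Syt1 codes for the fast calcium sensor of synchronous release. Syt1 had 1050.0, 964, 1155, 946 and 1044 CPM in light-treated jj pups, against 936, 956, 738, 921 and 1009 CPM in untreated jj pups. Among Nj pups, Syt1 had 1074, 1135, 1099.5, 1021 and 1093 CPM in the light-treated, against 1040.0, 1017, 966, 918 and 988 CPM in the untreated. Untreated jj library 3, at 738 CPM, was the lowest of all 20, and the ranges overlapped in both genotypes. Syt1 rose by 0.16 (SE 0.05, adjusted p = 0.0346). Syt2 codes for a close relative that prevails in hindbrain and in fast-spiking interneurons. Syt2 had 2.59, 3.82, 3.62, 2.98 and 3.66 CPM in light-treated jj pups, against 1.59, 3.42, 2.56, 2.48 and 1.84 CPM in untreated jj pups. Among Nj pups, Syt2 had 2.86, 2.46, 2.08, 5.30 and 2.53 CPM in the light-treated, against 2.46, 2.70, 2.03, 1.73 and 2.36 CPM in the untreated. Its counts were low and its spread was the widest of the 42 genes, with the highest library 3.33 times the lowest. The change of Syt2, 0.46 (SE 0.16, adjusted p = 0.0738), was the largest of all in size and did not pass the threshold. Syt4, Syt5, Syt7, Syt11, Doc2a and Doc2b, further calcium-binding or related C2-domain proteins, had log2 changes between -0.08 and 0.08, none past the threshold.

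The active zone genes organise docking and priming. Of 8, 1 rose and 1 fell, where 4.35% of all genes were higher and 5.74% lower. The median change of the 8 was 0.04. Pclo codes for piccolo, a giant scaffold of the active zone. Pclo had 276, 236, 292, 264 and 259.9 CPM in light-treated jj pups, against 285, 329, 269, 321 and 303 CPM in untreated jj pups. Among Nj pups, Pclo had 274, 303, 277, 281 and 266 CPM in the light-treated, against 284, 278, 308, 317 and 304 CPM in the untreated. Within each genotype the ranges overlapped, by treated libraries at 276 and 292 CPM in jj and at 281 and 303 CPM in Nj. Pclo fell by 0.14 on the log2 scale (SE 0.04, adjusted p = 0.0395). Bsn, which codes for bassoon, its closest relative, had a log2 change of -0.02 (SE 0.03, adjusted p = 0.731). Rab3a codes for the vesicle GTPase that binds the RIM scaffolds. Rab3a had 489, 440.4, 467, 478 and 469 CPM in light-treated jj pups, against 461, 434, 439.7, 426 and 458 CPM in untreated jj pups. Among Nj pups, Rab3a had 477, 459, 483, 486 and 463 CPM in the light-treated, against 456, 470.5, 422, 418 and 448 CPM in the untreated. Treated values of Rab3a reached into the untreated range in both genotypes. Rab3a rose by 0.09 (SE 0.03, adjusted p = 0.0484). Rab3c had a log2 change of 0.12 (SE 0.05, adjusted p = 0.174) and the priming factor Unc13b one of -0.09 (SE 0.03, adjusted p = 0.113). Rims1, Rims2 and Unc13a, which code for RIM scaffolds and the priming factor Munc13-1, had log2 changes between 0.02 and 0.07, none past the threshold.

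Among 4 endocytosis genes, 1 rose, where 4.35% of all genes were higher. All 4 changes were positive, against 50.35% of all genes, and their median was 0.10. Sh3gl2 codes for endophilin A1, which bends membrane at the forming vesicle. Sh3gl2 had 157, 138, 154, 159 and 164 CPM in light-treated jj pups, against 139.5, 141, 136, 146 and 153 CPM in untreated jj pups. Among Nj pups, Sh3gl2 had 168, 161, 155, 157 and 152 CPM in the light-treated, against 151, 153, 152, 143 and 139 CPM in the untreated. The Nj groups barely overlapped, at 152 and 153 CPM, and the jj groups did so more widely. Sh3gl2 rose by 0.11 (SE 0.03, adjusted p = 0.0389). Amph codes for amphiphysin, which links clathrin coats to dynamin. Amph had 33.7, 41.3, 33.1, 28.1 and 34.3 CPM in light-treated jj pups, against 26.6, 34.4, 28.9, 29.4 and 43.8 CPM in untreated jj pups. Among Nj pups, Amph had 34.4, 45.4, 34.3, 31.2 and 42.2 CPM in the light-treated, against 29.9, 28.4, 28.1, 27.5 and 26.5 CPM in the untreated. The Nj groups did not overlap, while the jj groups did, with an untreated library at 43.8 CPM above every treated one. Averaged over genotypes, Amph had a log2 change of 0.24 (SE 0.09, adjusted p = 0.0867), which did not pass. Dnm1, the neuronal dynamin, had a log2 change of 0.10 (SE 0.04, adjusted p = 0.0999), and Snap91, a clathrin assembly protein, one of 0.03 (SE 0.04, adjusted p = 0.725).

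Neither neurexin gene was called, where 10.1% of all genes were. The neurexins are presynaptic adhesion proteins that bind neuroligins across the cleft. Nrxn2 had 689, 632, 681, 739.7 and 679 CPM in light-treated jj pups, against 666, 740.5, 779, 697 and 729 CPM in untreated jj pups. Among Nj pups, Nrxn2 had 693, 644, 656, 720.2 and 605 CPM in the light-treated, against 677, 734, 673, 799 and 776 CPM in the untreated. The ranges overlapped in both genotypes. Nrxn2 had a log2 change of -0.11 (SE 0.04, adjusted p = 0.0915) and Nrxn3 one of -0.02 (SE 0.03, adjusted p = 0.707).

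The calls differed in how firmly they held. With each of the 20 libraries left out in turn, Vamp1, Napb, Snap25, Slc17a7, Nsf and Syngr3 were called every time, with highest adjusted p of 0.00298, 0.0089, 0.0334, 0.0298, 0.0365 and 0.0404. Cplx1 was not called without untreated jj 4 (adjusted p = 0.0505). Vamp2 was not called without untreated jj 4 or untreated Nj 4, with a highest adjusted p of 0.0616. Syp was lost without untreated jj 1 or 4 or untreated Nj 4 (highest adjusted p = 0.0723). Syt1 was lost without treated jj 3, untreated jj 4, treated Nj 2 or 5, or untreated Nj 4 (0.0687). Rab3a was lost without treated jj 1 or 5, untreated jj 4, treated Nj 4, or untreated Nj 3 or 4 (0.0919). Sh3gl2 was lost without treated jj 5, untreated jj 1 or 4, treated Nj 1 or 2, or untreated Nj 4 or 5 (0.0627).

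Syn3, Pclo and Sncb were the least stable calls, kept in 7, 6 and 6 of the 20 fits. Syn3 was called without treated jj 3 or 4, untreated jj 3, treated Nj 1 or 2, or untreated Nj 1 or 2, and its highest adjusted p was 0.0821. Pclo was called without treated jj 3, untreated jj 1 or 3, treated Nj 2, or untreated Nj 1 or 2 (highest adjusted p = 0.0991). Sncb was called without treated jj 1 or 2, untreated jj 2 or 3, treated Nj 3, or untreated Nj 2 (0.0912). The direction of all 15 genes was the same in all 27 alternative fits. Those fits reuse most of the libraries that gave the calls, so a kept direction was close to given beforehand. Without untreated jj 4 the count was 6 of 42, where 8.27% of all genes were called, and without untreated Nj 4 it was 7, where 6.64% were called. The highest count was 19, without untreated Nj 2, where 10.3% were called. With no filter on low counts 10 of the 15 calls were kept, and 5.35% of all genes were called. The calls lost in that fit were Sncb (adjusted p = 0.0574), Sh3gl2 (0.0685), Syp (0.0691), Vamp2 (0.0735) and Rab3a (0.12).

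Choroid plexus RNA varied between libraries. Ttr, the transthyretin gene that marks this tissue, was above 1000 CPM in 7 libraries: 3 light-treated jj, 1 untreated jj, 2 light-treated Nj and 1 untreated Nj. In the 13 remaining libraries 6 of the 42 genes were called, all higher under light, where 2.74% of all genes were called, 1.46% higher. Of these, 5 were among the 15 above: Vamp1, Napb, Snap25, Syt1 and Vamp2, of which Vamp2 was not called in the fit with no count filter. The sixth was Synpr. The other 10 were not called there. Their adjusted p without those libraries was 0.057 for Slc17a7, 0.0606 for Cplx1, 0.0652 for Syp, 0.0925 for Sh3gl2, 0.1 for Rab3a, 0.105 for Nsf, 0.129 for Sncb, 0.147 for Syngr3, 0.156 for Pclo and 0.169 for Syn3.

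Markers of neurons and other cells differed under light as well, and their part in the changes above was not tested. The marker counts here stand beside 10.1% of all genes called, 4.35% higher and 5.74% lower. Of 7 markers of immature neurons, 5 fell and 0 rose, with a summed level of 6676 to 7919 CPM in light-treated libraries and 6964 to 8863 CPM in untreated ones. Of 8 general neuronal markers, 1 rose and 1 fell, and their sum was 7261 to 8253 CPM in light-treated libraries and 6610.0 to 8342 CPM in untreated ones. The 8 GABAergic markers gave 2 higher and 2 lower, with a sum of 657 to 763 CPM in light-treated libraries and 594 to 721 CPM in untreated ones. Of 6 Cajal-Retzius markers 1 fell, and their sum was 621 to 684 CPM in light-treated libraries and 694 to 876 CPM in untreated ones. Most of that sum was Reln, at 469 to 540 CPM under light and 556 to 732 CPM without. Its ranges were apart, as for 0.478% of all genes in either direction. Each of the other Cajal-Retzius markers overlapped, among them Calb2, at 113 to 157 CPM under light and 101 to 132 CPM without. Of 6 astrocyte markers 2 rose and 1 fell (2208 to 2463 CPM under light and 1955 to 2390.0 CPM without), of 8 microglial markers 3 rose (128 to 157 CPM under light and 119 to 145 CPM without), and of 4 tested oligodendrocyte markers 1 rose (239 to 329 CPM under light and 209 to 315 CPM without). The 11 choroid plexus markers gave 0 calls, with a median change of 0.73 on the log2 scale. The 7 meningeal markers also gave 0 calls, with a median change of -0.35. Their sum was 418 to 942 CPM under light and 385 to 1084 CPM without. Of 8 hippocampal markers 3 fell (857 to 1091 CPM under light and 902 to 1126 CPM without). Otx2, Mog and Gbx2 were below 1 CPM.

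The genotypes were then compared in their response to light. In Nj pups, 2 of the 42 genes rose: Vamp1 by 0.39 (SE 0.09, adjusted p = 0.0156) and Napb by 0.32 (SE 0.08, adjusted p = 0.0338). None fell. Among all genes tested 4% were called in Nj pups, 1.49% higher and 2.51% lower. At an unadjusted p under 0.05, 16 of the 42 were higher and 3 lower, against 8.25% of all genes higher and 9.89% lower, together 18.1%, and DESeq2 called 6, with 6.52% of all genes. Vamp1 was not called in Nj pups without untreated Nj 4 (adjusted p = 0.0579), where the count was 0 of 42 and 0.989% of all genes were called, nor without the libraries rich in Ttr (0.141), where 0.723% of all genes were called. Napb was called in 4 of the 10 fits that left out 1 Nj library. It was lost without treated Nj 1, 2, 4 or 5 or untreated Nj 4 or 5, with a highest adjusted p of 0.12. The Nj count of 2 was 5 without untreated Nj 2 (4.24% of all genes), 1 with no count filter (1.99%), 6 in a fit of the Nj groups alone (5.49%) and 7 with J15 pups as the only untreated Nj (4.82%).

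In jj pups 0 of the 42 genes were called by edgeR, where 0.164% of all genes were. At an unadjusted p under 0.05, 15 were higher and 4 lower, against 5.64% of all genes higher and 7.31% lower, together 13%, and DESeq2 called 1, Vamp1, with 2.35% of all genes. The jj changes were 0.32 for Vamp1 (SE 0.09, adjusted p = 0.11), 0.27 for Napb (SE 0.08, adjusted p = 0.155) and 0.30 for Snap25 (SE 0.11, adjusted p = 0.233). The ranges of 6 genes lay higher and apart under light in Nj pups, namely Vamp1, Napb, Snap25, Slc17a7, Synpr and Amph, where 3.07% of all genes did. In jj pups Snap25 and Cplx1 lay higher and apart (1.27% of all genes), and Syn3 lower and apart (1.69%).

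The difference between the genotypes was tested directly as the interaction of genotype and light. By edgeR 0 of the 42 genes passed, as did 0% of all genes, and 1 had an unadjusted p under 0.05, in the positive direction, against 3.41% of all genes, 1.67% in that direction. DESeq2 called 0, as it did of all genes, with 2 at an unadjusted p under 0.05, against 2.7% of all genes. That share is over 22770 genes, low-count ones included, and cannot be read like the edgeR share. The 1 gene was Sv2a, at 0.14 (SE 0.07, adjusted p = 1). Its light change was 0.03 (SE 0.05) in jj pups and -0.11 (SE 0.05) in Nj pups. Amph had the interaction of largest size, at -0.35 (SE 0.18, adjusted p = 1), with light changes of 0.06 (SE 0.12) in jj pups and 0.42 (SE 0.12) in Nj pups. The sign of the light change was shared by both genotypes in 37 of 42 genes, 28 higher and 9 lower, while 69.9% of all genes shared their sign. These comparisons have no library in common, but all groups were scaled and fitted together. The treated libraries of both genotypes carry the prefix J18, which no untreated library does, so light and prefix cannot be told apart in either comparison. The 5 genes of opposite sign were Sv2a and Syn1, positive in jj alone, and Sv2c, Doc2a and Slc17a6, positive in Nj alone.

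**Figure D3:**
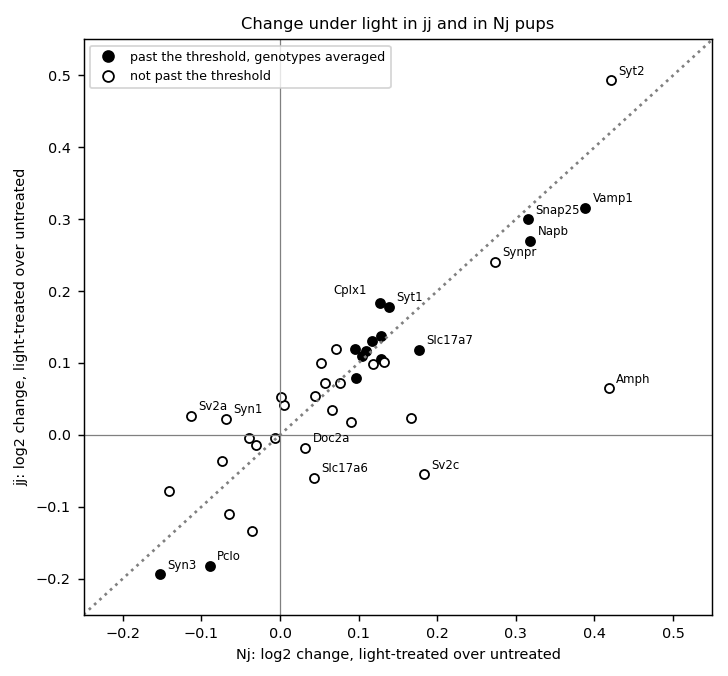
Log2 change, light-treated over untreated, in jj pups (vertical) against Nj pups (horizontal), 1 point for each of the 42 genes, filled where the change averaged over genotypes was called; the dotted line marks equal change. Napb and Snap25 lie at about 0.3 in both genotypes, Vamp1 lies at 0.39 in Nj and 0.32 in jj, and Amph lies at 0.42 in Nj and 0.06 in jj.

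Jaundice on its own was examined in untreated pups. Between untreated jj and untreated Nj pups edgeR called 0 of the 42 genes and 0% of all genes, and DESeq2 called 0 of the 42 and 0.00439% of all genes. At an unadjusted p under 0.05 there were 4, against 6.36% of all genes: Sv2a lower in jj, as 2.67% of all genes were, and Vamp1, Syt7 and Doc2b higher, as 3.69% were. Sv2a had a change of -0.13 (SE 0.05, adjusted p = 0.775). Its 5 untreated jj libraries, at 367 to 384 CPM, lay below all 5 untreated Nj libraries, at 388 to 434 CPM. No other of the 42 genes had ranges apart. Of all genes 1% did, 0.524% with jj lower. Vamp1 had a change of 0.20 (SE 0.09, adjusted p = 0.775), Syt7 of 0.13 (SE 0.06, adjusted p = 0.775) and Doc2b of 0.13 (SE 0.06, adjusted p = 0.775). The untreated groups differ in title prefix as well as in genotype.

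Light-treated jj and light-treated Nj pups, which share a prefix, gave 0 of 42 calls by edgeR and by DESeq2, where edgeR called 0% and DESeq2 0.00878% of all genes. At an unadjusted p under 0.05 there was 1, Slc17a6, lower in jj, against 6.62% of all genes, 2.83% in that direction. The change of Slc17a6 was -0.18 (SE 0.07, adjusted p = 0.724). Its treated jj libraries, at 95.0 to 117 CPM, overlapped the treated Nj libraries, at 115 to 126 CPM. For Sv2a this comparison gave 0.01 (SE 0.05, adjusted p = 0.979). None of the 42 genes had ranges apart here, and 1.2% of all genes did.

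Pairs of paralogs were also set against each other within each library, as the log2 ratio of their counts. Such a ratio carries the lengths of both transcripts, so that only its differences between groups are read. There were 4 ratios in 4 comparisons, 16 exact two-sided permutation tests, in which 5 against 5 libraries can give no p below 0.00794. A single test at that p could not have passed after adjustment over the 16, so a lack of passes does not show equal ratios. None passed after adjustment, the lowest adjusted p being 0.127, and 6 had an unadjusted p under 0.05. The ratio of Vamp1 to Vamp2 was -5.12, -5.00, -5.25, -5.23 and -5.08 in light-treated jj pups, against -5.31, -5.12, -5.34, -5.40 and -5.53 in untreated jj pups. In Nj pups it was -5.43, -5.29, -5.37, -5.26 and -5.16 in the light-treated and -5.57, -5.39, -5.82, -5.64 and -5.51 in the untreated. The order of the group means was light-treated jj at -5.14, light-treated Nj at -5.30, untreated jj at -5.34 and untreated Nj at -5.59, with overlap between neighbours. Light differed from no light by 0.20 in jj pups (exact permutation p = 0.0476) and by 0.29 in Nj pups (exact permutation p = 0.0159). The jj pups differed from Nj pups by 0.16 under light (exact permutation p = 0.0397) and by 0.25 without it (exact permutation p = 0.0397). Each of these 4 had an adjusted p of 0.127.

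The ratio of Slc17a7 to Slc17a6 was 3.39 ± 0.14 in light-treated jj, 3.22 ± 0.28 in untreated jj, 3.18 ± 0.05 in light-treated Nj and 3.04 ± 0.09 in untreated Nj pups (mean ± SD of 5). Light-treated jj pups exceeded light-treated Nj pups by 0.21 (exact permutation p = 0.0317), and light-treated Nj pups exceeded untreated Nj pups by 0.14 (exact permutation p = 0.0238), both with an adjusted p of 0.127. Untreated jj library 3, at 3.71, lay above the other 4 of its group, at 3.02 to 3.20. The ratios of Syt2 to Syt1 and of Cplx1 to Cplx2 gave unadjusted exact permutation p between 0.103 and 0.802.

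**Figure D4:**
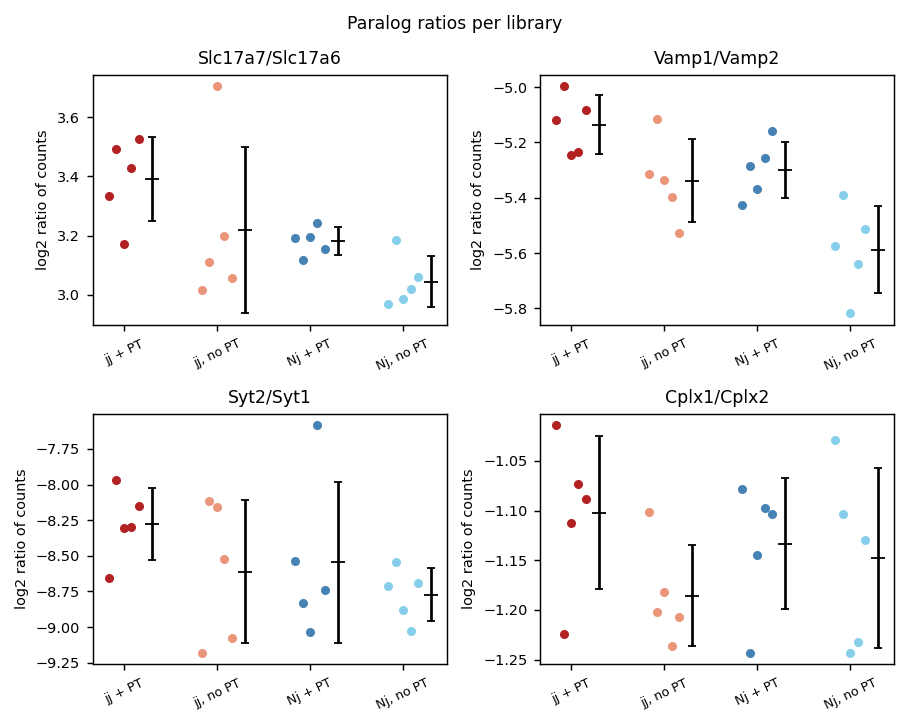
Log2 ratio of the counts of 4 pairs of paralogs, 1 point per library, with mean and SD of 5 libraries beside each group. For Vamp1 to Vamp2 the means run between -5.14 in light-treated jj and -5.59 in untreated Nj pups.

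The libraries were compared over the 42 genes as a whole, each gene set against its own mean over the 20 libraries. The median deviation of a library ran between -0.11 in untreated Nj 3 and 0.08 in light-treated Nj 1 on the log2 scale. Of the 10 light-treated libraries only jj 2, at -0.05, had a negative median. Among the untreated libraries jj 2 and 5 and Nj 2 had positive medians. Untreated jj 3 held the lowest value for 12 genes and the highest for 5, the widest scatter of all, with an SD of 0.25, and it also had the highest Ttr level, 9662 CPM. Untreated Nj 3 held the lowest value for 10 genes. After Syt2, the genes with the widest range were Synpr, with 2.27 times between the lowest and highest library, Snap25 with 2.09 and Vamp1 with 1.82, and the narrowest was that of Rab3a, with 1.17.

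**Figure D5:**
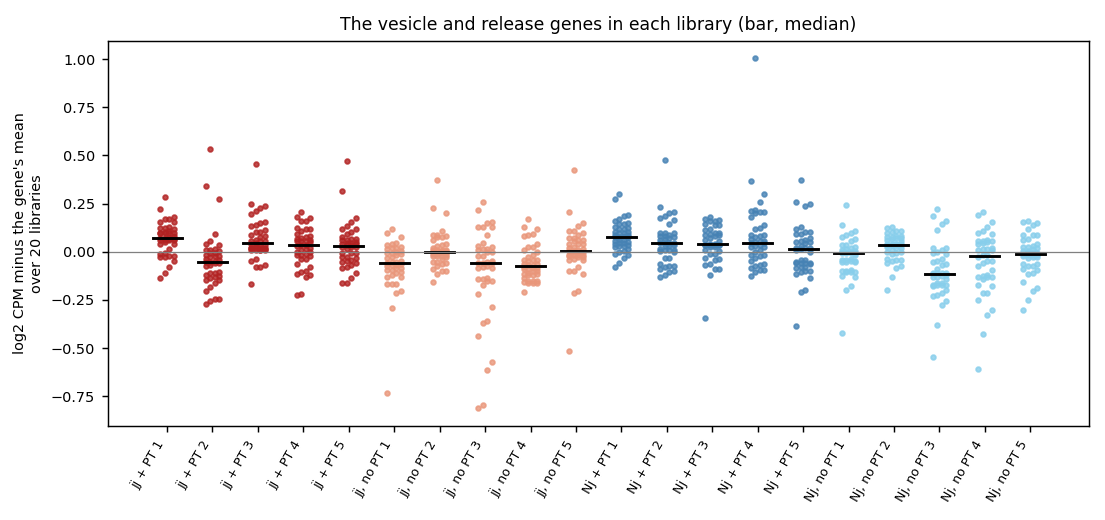
Log2 CPM of each of the 42 genes in each library minus the gene's mean over 20 libraries, 1 point per gene, with the median as a bar. Medians lie between -0.11 (untreated Nj 3) and 0.08 (light-treated Nj 1), and untreated jj 3 shows the widest scatter.

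Beyond the 42 genes, 91 further genes of vesicles, release and recycling were listed, 90 were found and 89 passed the filter. This list, too, was chosen with earlier results of these data known, so its counts are description only. Averaged over genotypes 12 rose and 1 fell, where 10.1% of all genes were called, 4.35% higher and 5.74% lower. Of the 89 changes 61 were positive, against 50.35% among all genes, and the median of the 89 was 0.03. The 8 with the lowest p all rose. Eps15, an endocytic adaptor, had a lowest, median and highest value of 103, 106 and 111 CPM in the 10 light-treated libraries and 88.8, 96.5 and 97.8 CPM in the 10 untreated ones. Its light-treated and untreated ranges did not overlap, as for 0.183% of all genes in that direction, and it rose by 0.16 (SE 0.03, adjusted p = 0.000767). Slc30a3, the transporter that loads zinc into glutamatergic vesicles, had a lowest, median and highest value of 52.4, 56.1 and 63.5 CPM in the 10 light-treated libraries and 36.2, 48.1 and 55.5 CPM in the 10 untreated ones, with overlap, and it rose by 0.28 (SE 0.06, adjusted p = 0.00499). Napg, which codes for gamma-SNAP, a relative of Napb, had a lowest, median and highest value of 121, 135 and 142 CPM in the 10 light-treated libraries and 87.0, 114 and 125 CPM in the 10 untreated ones. Napg rose by 0.24 (SE 0.05, adjusted p = 0.00227), and its ranges overlapped. Lin7b, a scaffold gene, rose by 0.24 (SE 0.05, adjusted p = 0.00432) and Synj2, which codes for synaptojanin 2, a lipid phosphatase of coat removal, by 0.22 (SE 0.05, adjusted p = 0.00472). Rimbp2, which codes for a protein that ties RIM to calcium channels, rose by 0.17 (SE 0.04, adjusted p = 0.00759). Rab3gap1, part of the enzyme that turns Rab3 off, rose by 0.14 (SE 0.03, adjusted p = 0.00373) and Atp6v1b2, a subunit of the proton pump that energises filling, by 0.14 (SE 0.03, adjusted p = 0.00635). Itsn1, the endocytic scaffold intersectin, was the 1 that fell, by 0.14 on the log2 scale (SE 0.03, adjusted p = 0.00936). In Nj pups alone 7 of the 89 rose, where 1.49% of all genes did. Their count was 2 without untreated Nj 5, where 1.04% of all genes were called. In jj pups alone edgeR called 0 of the 89, where 0.164% of all genes were called. At an unadjusted p under 0.05 there were 13, of which 12 were higher and 1 lower. Among all genes that share was 13%, with 5.64% higher and 7.31% lower. There DESeq2 called 3 of the 81 to which it gave an adjusted p, where it called 2.35% of all genes. The interaction and both comparisons of jj with Nj gave 0 calls among these genes by both tools. At an unadjusted p under 0.05 there were 3 for the interaction, against 3.41% of all genes, 2 between untreated jj and untreated Nj pups, against 6.36%, and 8 between light-treated jj and light-treated Nj pups, against 6.62%.

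Promoter sequences are shown for 5 of the called genes, to set the letters beside the shared change: the 3 with the lowest p that have an entry, Sh3gl2 for its motif pair, and Pclo, which fell. RefSeq promoters (GRCr8, 250 bases before and 50 after the start) matched 30 of the 42 genes and 12 of the 15 called. In the sequences capitals mark the GC box GGGCGG and the cyclic-AMP response element (CRE) TGACGTCA, read on both strands. The lines give Vamp1 at chr4:159698644-159698943 (plus strand), Napb at chr3:156632369-156632668 (minus strand), Slc17a7 at chr1:104785955-104786254 (plus strand), Sh3gl2 at chr5:104699020-104699319 (plus strand) and Pclo at chr4:21005062-21005361 (minus strand).
Vamp1: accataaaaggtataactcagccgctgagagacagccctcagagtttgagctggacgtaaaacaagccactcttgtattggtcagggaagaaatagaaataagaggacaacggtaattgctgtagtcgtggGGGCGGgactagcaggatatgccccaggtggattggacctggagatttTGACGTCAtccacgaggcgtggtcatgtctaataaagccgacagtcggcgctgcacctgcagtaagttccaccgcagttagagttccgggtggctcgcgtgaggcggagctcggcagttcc
Napb: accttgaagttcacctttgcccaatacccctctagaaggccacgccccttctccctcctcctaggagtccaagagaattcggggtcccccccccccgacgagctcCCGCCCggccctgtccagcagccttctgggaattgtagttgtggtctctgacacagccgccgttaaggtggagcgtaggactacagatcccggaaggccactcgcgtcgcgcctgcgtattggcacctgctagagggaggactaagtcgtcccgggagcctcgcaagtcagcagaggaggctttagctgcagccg
Slc17a7: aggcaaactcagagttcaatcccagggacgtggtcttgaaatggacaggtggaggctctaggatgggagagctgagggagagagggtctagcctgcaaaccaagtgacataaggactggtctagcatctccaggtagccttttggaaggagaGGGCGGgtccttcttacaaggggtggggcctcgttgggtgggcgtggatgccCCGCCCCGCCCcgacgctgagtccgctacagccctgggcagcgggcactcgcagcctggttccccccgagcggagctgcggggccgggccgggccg
Sh3gl2: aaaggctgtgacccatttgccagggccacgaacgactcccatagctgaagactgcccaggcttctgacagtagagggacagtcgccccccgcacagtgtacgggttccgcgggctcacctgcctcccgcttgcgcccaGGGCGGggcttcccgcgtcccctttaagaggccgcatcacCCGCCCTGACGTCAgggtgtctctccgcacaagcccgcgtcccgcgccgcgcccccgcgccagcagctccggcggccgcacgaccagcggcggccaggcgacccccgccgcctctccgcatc
Pclo: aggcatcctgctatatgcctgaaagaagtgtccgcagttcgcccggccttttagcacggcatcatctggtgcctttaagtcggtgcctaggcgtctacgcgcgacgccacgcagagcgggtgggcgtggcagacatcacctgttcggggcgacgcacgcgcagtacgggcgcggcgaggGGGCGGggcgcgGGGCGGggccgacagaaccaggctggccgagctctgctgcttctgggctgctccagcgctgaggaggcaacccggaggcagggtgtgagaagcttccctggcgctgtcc
A GC box was in 12 of the 12 promoters of called genes and in 11 of the 18 promoters of genes not called, against 33.1% of all 33469 promoters. The whole CRE was in 3 of 30, those of Vamp1, Sh3gl2 and Syn1, against 1.83% of all, and Syn1 was not called. Counted from the start, it begins at base -71 in Vamp1 and at base -66 in Sh3gl2, where it directly follows a GC box without overlap. The E-box CACGTG was in 1 of 30, that of Nsf, against 6.42% of all, and the NRF1 motif in 1, that of Bsn, against 0.852%. TATAAA was in 0 of 30, against 14.2% of all, and the core of the RE1 element, bound by the neuronal repressor REST, in 0, against 0.0299%. These matches describe the letters in these windows alone.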

How the data were processed

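The raw read counts per gene were made and deposited by the authors, with no normalisation, for 20 polyA libraries. Per the submitters' processing notes FastQC, TopHat2 2.0.13, Subread and edgeR were used. The notes give no roles, strand setting or options, and name a mouse build although the gene identifiers are of rat, so no coordinates of the counts are given. Genes were kept by filterByExpr, scaled by TMM and fitted together by quasi-likelihood, each group having its own mean (edgeR 4.0.16, limma 3.58.1, R 4.3.3). Tests were two-sided F-tests with Benjamini-Hochberg adjustment over all genes tested. DESeq2 1.42.0 was the second tool, run with no count filter beforehand. Its shares of all genes are over the genes to which it gave an adjusted p. These were 14599 for averaged light, 15024 for light in Nj pups and 11586 for light in jj pups. They were 22770 for the interaction and for both comparisons of jj with Nj. The light change averaged over genotypes weighs both genotypes equally. Ratios used counts with 0.5 added. The fit was also run on counts simulated from its own mean levels and spreads, with known changes added. The simulation held no prefix or choroid plexus differences, so it does not test the fit against those.

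Members and lists were chosen with earlier results of these data known. Every library is shown for called members, the member with the lowest unadjusted p of each role and members of the paralog pairs. Of the wider list, the 8 genes with the lowest p are named, and Itsn1 was added after its values were seen. Replicates were numbered in accession order. Each library is 1 pup, so p-values measure the spread between pups. Whether pups shared a litter is not given. Alternatives were other scaling, filters, estimates and samples, and leaving out each library.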

Additional observations from a re-analysis of the deposited data

Results flagged for a closer look

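In 21 genes and 4 paralog ratios, each of the 4 groups of 5 libraries was examined for a library far from the rest, 100 groups in all. Chance flags about 1 in 20 groups, and 3 were found. Snap25 in untreated jj library 3 stood at 377 CPM, while the other 4 of that group lay between 584 and 636 CPM. The log2 ratio of Slc17a7 to Slc17a6 was 3.71 in the same library, with the other 4 between 3.02 and 3.20. Syt2 in light-treated Nj library 4 was at 5.30 CPM, with the others of its group between 2.08 and 2.86 CPM.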

How the results depend on the processing

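All 15 genes called for light averaged over genotypes kept their direction in every fit tried, but these fits share most libraries with the one that gave the calls. The count of 15 of 42 (10.1% of all genes) was 10 with no count filter (5.35%), 6 without the 7 libraries rich in Ttr (2.74%), and 6 to 19 with single libraries left out, the ends being without untreated jj 4 (8.27%) and without untreated Nj 2 (10.3%). For light in Nj pups the count of 2 (4% of all genes) was 1 with no count filter (1.99%), 6 in a fit of the compared groups alone (5.49%), 7 with J15 pups as the only untreated Nj (4.82%), 6 by DESeq2 (6.52%), and 0 to 5 with single libraries left out, the ends being without untreated Nj 4 (0.989%) and without untreated Nj 2 (4.24%). For light in jj pups the count of 0 (0.164%) was 1 by DESeq2 (2.35%). Among the wider genes the count of 13 for averaged light was 7 without the libraries rich in Ttr (2.74%). For light in Nj pups the 7 calls became 1 without those libraries (0.723%), 11 with J15 pups alone (4.82%), 11 by DESeq2 (6.52%), and 2 to 11 with single libraries left out, the ends being without untreated Nj 5 (1.04%) and without untreated Nj 2 (4.24%). For light in jj pups the 0 calls became 3 by DESeq2 (2.35%). The cause was not tested. No paired analysis was possible because the replicate numbers follow accession order and link no pups between groups. Depth limits Syt2 most, at a few CPM.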
